A study of Saccharomyces cerevisiae with 13 samples.

Results

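The 10 histone genes of budding yeast (Saccharomyces cerevisiae) were examined for DNA double-strand breaks mapped by Break-Seq, in which broken ends are labelled with biotinylated nucleotides inside agarose plugs, captured and sequenced. The genes were taken by name from the RefSeq annotation of the R64 assembly, which corresponds to the sacCer3 build of the peak files, and all 10 were found among 6431 nuclear genes. A gene counts as reached when a peak overlapped its body or came within 500 bp of it on either side. The members were listed by name, and they were chosen with earlier results of these data known.

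Nucleosomes are built from the core histones H2A, H2B, H3 and H4, and yeast carries a pair of gene copies for each. The copies are arranged as divergent pairs, 1 H2A gene with 1 H2B gene or 1 H3 gene with 1 H4 gene, read in opposite directions from a shared promoter. Transcription of the core histone genes is confined mainly to late G1 and S phase. For most of them, though not all, it is repressed when replication is blocked by hydroxyurea (HU), an inhibitor of ribonucleotide reductase. HTZ1 codes for the variant H2A.Z, which marks nucleosomes near promoters, and HHO1 for the linker histone H1. Both are single genes outside these pairs.

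HTA2 and HTB2, the second copies for H2A and H2B, lie on chromosome II at 235394 to 235792 and 236492 to 236887, with 699 bp between their starts. HHF1 (H4, 255373 to 255684) and HHT1 (H3, 256331 to 256741) lie 18486 bp further along chromosome II, with 646 bp between them. HTB1 (914317 to 914712) and HTA1 (915530 to 915928) lie on chromosome IV with 817 bp between them. HHT2 (575640 to 576050) and HHF2 (576727 to 577038) lie on chromosome XIV with 676 bp between them. HTZ1 is on chromosome XV at 303579 to 303983 and HHO1 on chromosome XVI at 308828 to 309604. All are protein-coding, and the left gene of each pair is on the Crick strand and the right gene on the Watson strand.

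The peaks came from strain WFA73, which carries mec1-1, a mutant allele of the checkpoint kinase gene MEC1 (called mec1), and from WFA72 with MEC1 intact (called WT). Both strains were arrested in G1 by alpha factor at 3 µM and released into 200 mM HU for 1 h, and for recovery (R) they were then kept 1 h without HU. The 13 lists comprised 3 mec1 HU lists (Exp A, Exp B and the Control experiment) and 2 WT HU lists (Exp C and Control) called from 1 library each, 2 mec1 R lists (Exp A and B) and 1 WT R list (Exp C) called over the HU library of the same experiment, and, from the Control experiment, 1 list for each strain of HU over mock labelling and 1 of HU over G1. The last list, from G1 cells of mec1 in Exp A, followed digestion of their DNA with the restriction enzyme BamHI and therefore holds cuts made in vitro. The titles of the mock and G1 samples name that material, while their descriptions name HU called over it. They are read here by the descriptions, and every value given as over mock or over G1 rests on that reading.

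The lists held from 43 peaks (WT HU, Control) to 547 (mec1 HU over G1) apart from the 1296 of the BamHI digest, and they covered 0.905 to 18.7% of the genome. Read depth is unknown, so a gene without a peak is a gene not called, which does not show that it was unbroken. In the recovery lists, which are called over HU, a missing peak means only that no gain over HU was called. The 3 Control lists of a strain share 1 HU library: 39 of the 43 peaks of WT HU and 58 of the 60 over mock recur at identical positions among the 90 over G1, and 260 of 265 and 472 of 472 recur among the 547 in mec1. Such lists are not replicates of each other. Nothing in the labels says whether Exp A, B, C and Control began from separate cultures, so a spread between lists may be technical.

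The largest share of histone genes was reached in 1 list of the Control experiment, WT HU over G1. In that list 6 of the 10 were reached, against 3.56% of all nuclear genes. They were HTA1, HTB1, HTA2, HTB2, HHT1 and HHF1, the members of all divergent pairs but HHT2 and HHF2. In WT HU over mock, 2 of 10 were reached (HTA2 and HTB2, against 2.63% of all genes), and the same 2 genes were reached in the WT HU list of the Control experiment called alone (against 1.87%). Because both genes of a pair can be reached by a single peak, these counts rest on few peaks, namely 4 in WT HU over G1 and 1 in each of the others.

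In WT HU Exp C, by contrast, 0 of 10 were reached, where 6.73% of all genes were. The mec1 HU lists reached 1 gene in Exp A (HHT1, against 6.45% of all genes), 0 in Exp B (against 7.35%) and 0 in Control (against 12.9%). This gives 0.333 ± 0.577 genes per list (SD, n = 3) in mec1 and 1.00 ± 1.41 (n = 2) in WT. The difference between these means was smaller than the SD in WT, though not than that in mec1, and the counts of the strains overlapped.

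Over mock, mec1 HU reached 2 of 10 (against 24.1%), and over G1 3 of 10 (HTA1, HTA2 and HTB2, against 26.2%). Recovery over HU reached 2 of 10 in mec1 Exp A (HHT1 and HHF1, against 11.9%), 1 in mec1 Exp B (HHT2, against 12.6%) and 0 in WT Exp C (against 5.4%). Of the 7 mec1 lists, 3 thus reached a larger share of the histone genes than of all genes and 4 a smaller one. The BamHI digest reached 3 of 10, against 35.7% of all genes.

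**Figure D1:**
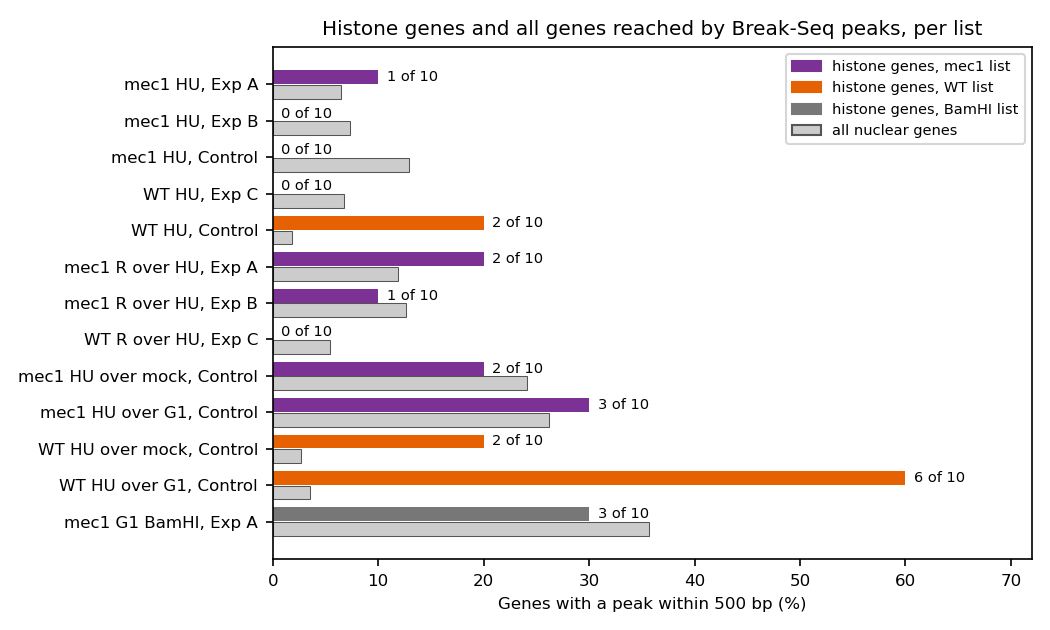
Share of the 10 histone genes (coloured bars, mec1 purple, WT orange, BamHI digest grey) and of all 6431 nuclear genes (light grey bars) with a peak within 500 bp, in percent, for each of the 13 lists. The WT HU over G1 list has 6 of 10 histone genes beside 3.56% of all genes, and the mec1 lists have 0 to 3 of 10.

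Taken as loci, the divergent stretch of 3 of the 4 histone pairs was overlapped in WT HU over G1, while 36 of 1527 divergent stretches between neighbouring protein-coding genes were (2.36%). In mec1 HU over G1 the stretch was overlapped in the HTA1-HTB1 and HTA2-HTB2 pairs, with 304 of 1527 overlapped in all (19.9%). Of the 12 lists without the BamHI digest, at least 1 reached 7 of the 10 members, against 40.4% of all genes, and at least 5 reached HTA2 and HTB2, against 7.71%. HTA1, HTA2 and HTB2 were reached in both HU over G1 lists, which 3.03% of all genes were. These counts include lists that share a library.

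The HTA2-HTB2 pair was the histone locus called most often, in 5 of the 12 lists, all from the Control experiment. In WT a single peak, chromosome II 235603 to 240111, was called at the same position in HU alone (score 85.44, rank 25 of 43), over mock (397.6, rank 14 of 60) and over G1 (625.17, rank 15 of 90). The score is the authors' peak caller value, whose scale the files do not state, and it serves here only to rank peaks within a list. The peak was 4509 bp wide, 2.16 times the median width in WT HU and 2.78 times that over G1. It covered the whole stretch between the starts of the pair, all of HTB2 and the 190 bp of HTA2 (47.6%) next to its start, and ran 3224 bp past the end of HTB2 over ECM15 and into NTH2, a trehalase gene.

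In mec1 the pair was covered from the other side. The peak at chromosome II 228149 to 237405, called over mock (score 2200.66, rank 36 of 472) and over G1 (3100, 1 of 25 peaks tied at rank 7 of 547), was 9257 bp wide. It held both HTA2 and HTB2 entirely. It also covered all but the start of UTP20, which codes for a protein of small ribosomal subunit processing. It ended inside ECM15, 518 bp past HTB2. The peaks of the strains shared 1803 bp, from 235603 to 237405, which is where the promoter of the pair and HTB2 lie. Relative to the pair's centre the midpoints lay at 1.72 kb in WT and at -3.36 kb in mec1, with negative values on the HTA2 side, so neither peak was centred on the histone genes.

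Called alone, the mec1 HU library of the Control experiment gave no peak over HTA2 or HTB2. Its nearest peak, 238065 to 244894, began 1178 bp past HTB2 over NTH2 and the genes RER2, COQ1 and GPI18 (score 185.7, rank 81 of 265), and it shared 2047 bp with the WT peak. That peak and the next, 245972 to 253509, were called at the same positions over mock and over G1. Between them and the peak over the pair, mec1 HU over G1 covered 81.3% of the 10 kb on each side of the centre of HTA2-HTB2, against 18.7% of the genome. WT HU over G1 covered 22.5% of the same stretch, against 1.65% of the genome.

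Outside the Control experiment the pair was not called. The nearest peak to HTA2 lay 14.6 kb away in mec1 HU Exp A, 30.3 kb in mec1 HU Exp B and 30.5 kb in WT HU Exp C. In recovery it lay 10.1 kb away in mec1 Exp A, 14.4 kb in mec1 Exp B and 16.4 kb in WT Exp C. The 5 lists that reached the pair thus rest on 2 HU libraries of 1 experiment.

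The HHT1-HHF1 pair, which codes for H3 and H4, was reached in 3 of the 12 lists, each by a different peak. In mec1 HU Exp A the peak at chromosome II 256517 to 258453 (score 89.26, rank 107 of 138) covered 225 bp of HHT1 at its 3′ side (54.7%) and IPP1, the inorganic pyrophosphatase gene next to it, and left HHF1 833 bp away. In recovery of the same experiment the peak at 254545 to 258257 (824.64, rank 76 of 198) held HHT1, HHF1 and the 646 bp between them. In WT HU over G1 a peak of 1038 bp, 255900 to 256937 (75.75, rank 68 of 90), held all of HHT1 and 66.7% of the stretch between the pair, and ended 216 bp short of HHF1. HHT1 was thus overlapped in every list that reached the pair, and HHF1 in mec1 recovery Exp A alone.

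The Exp A result did not recur in Exp B. There the nearest peak to HHT1 lay 9.35 kb away in HU and 35.4 kb in recovery. In the mec1 Control lists it lay 2.82 kb away in all 3, at the 245972 to 253509 peak, which covers RCR1, UGA2, DSF2 and the drug transporter gene FLR1. WT HU over mock and over G1 also had a peak at FLR1, 251593 to 253943, 1.43 kb from HHF1. FLR1, the neighbour of HHF1, was itself reached in 6 of the 12 lists, more than either histone gene of the pair. Of all genes, 7.71% were reached in at least 5. Apart from mec1 recovery Exp A, the lists that reached FLR1 were Control lists, which share a HU library within each strain. The BamHI digest had a peak over FLR1 too, 253003 to 254298.

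**Figure D2:**
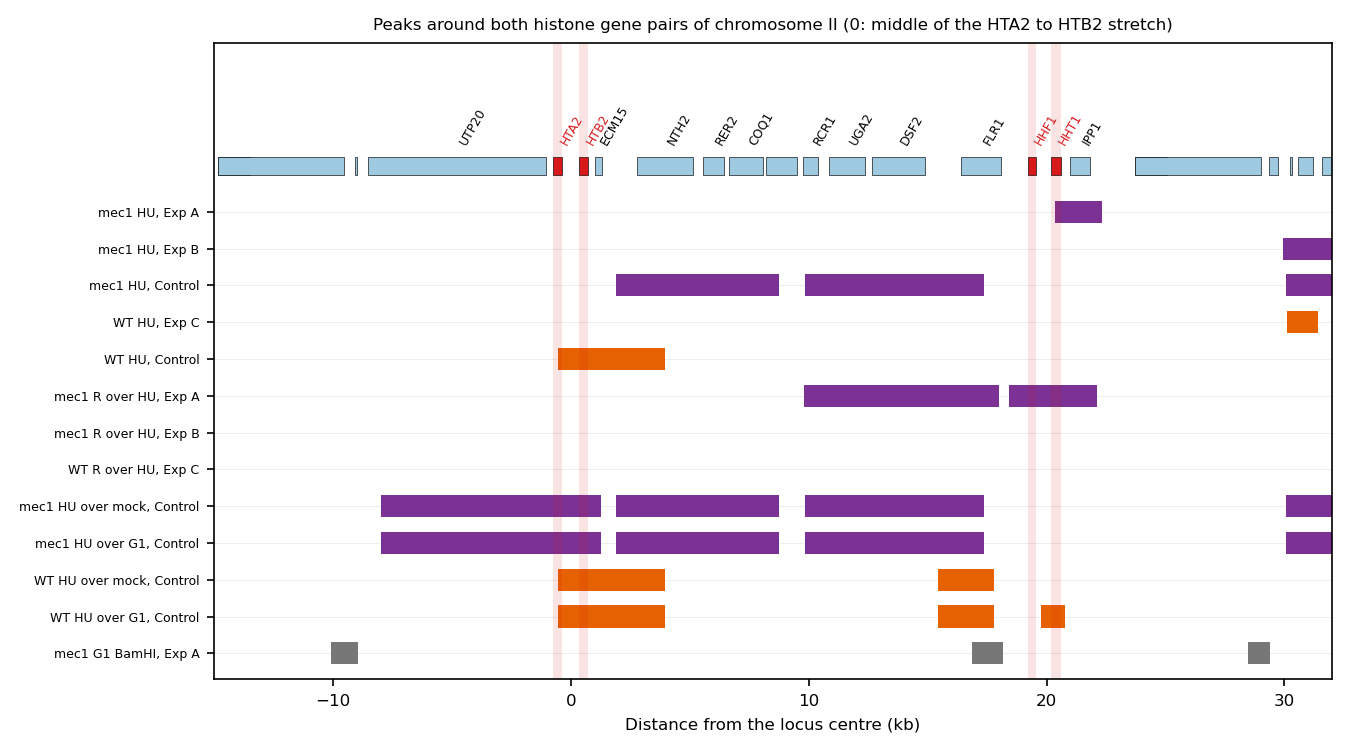
Peaks (bars) in the 13 lists over the part of chromosome II with both histone gene pairs, as distance in kb from the middle of the stretch between HTA2 and HTB2. Boxes at the top are genes, histone genes in red and shaded down the plot; mec1 lists are purple, WT lists orange and the BamHI digest grey. The WT Control peak starts inside HTA2 and runs to the right, the mec1 peak over mock and over G1 runs from the left to just past HTB2, and the HHT1-HHF1 pair is reached in mec1 Exp A, HU and recovery, and in WT HU over G1.

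The HTA1-HTB1 pair on chromosome IV, which codes for the other copies of H2A and H2B, was reached in HU only in the lists over G1. In WT HU over G1 each gene of the pair had a peak of its own. The peak at 914993 to 916615 (score 126.87, rank 49 of 90) held HTA1 entirely, covered 65.7% of the 817 bp between the starts and reached ADK1, the adenylate kinase gene. The peak at 913342 to 914679 (128.34, rank 48 of 90) held 91.7% of HTB1 and reached CRF1, a repressor of ribosomal protein genes. It ended inside HTB1 and covered 0 bp of the stretch between the starts. Another peak, at 911968 to 913210, lay over CRF1.

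In mec1 HU over G1 the peak at 915392 to 917429 (206.59, rank 376 of 547) held HTA1 and ADK1 but only 16.9% of the stretch between the pair, and it lay 680 bp from HTB1. It shared 1224 bp with the WT peak over HTA1. The next mec1 peak began just beyond it and ran from 917441 to 926823 over SIR4, a gene of transcriptional silencing, and it was called over mock as well, 1.51 kb from HTA1. None of these places was called in the HU lists alone: the nearest peak to HTA1 lay 162, 44.8 and 116 kb away in mec1 Exp A, Exp B and Control and 48.2 and 357 kb away in WT Exp C and Control. In recovery it lay 29.6, 48.0 and 9.96 kb away in mec1 Exp A, mec1 Exp B and WT Exp C.

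The peaks over HTA1, HTB1 and HHT1 in WT HU over G1 were thus absent from the other lists of the same HU library. Of the 90 peaks over G1, 24 (26.7%) overlapped no peak of the WT HU list called alone or over mock. The G1 library enters only the list over G1. The values behind the calls (reads in HU and in G1 at each place) are not given by the peak files, and what sets these peaks apart was not tested. They ranked 49, 48 and 68 of 90, whereas the HTA2-HTB2 peak, called in all 3 lists, ranked 15 of 90.

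The HHT2-HHF2 pair, which codes for the other copies of H3 and H4, had no peak over either gene in any of the 13 lists. It was reached once, in mec1 recovery Exp B, by a peak at chromosome XIV 573976 to 575417 (score 83.65, rank 181 of 209) that ended 223 bp from HHT2 over SIW14 and 1.31 kb from HHF2. All 7 mec1 lists from HU or recovery nevertheless had a peak within 10 kb of the pair, on its HHT2 side over YNL035C. The BamHI digest of mec1 G1 DNA had a peak over YNL035C too, 569361 to 570650, 4.99 kb from HHT2. Of all genes, 24.5 to 59.0% lay within 10 kb of a peak in these 7 mec1 lists and 8.01 to 20.1% in the 5 WT lists. In the digest 94.6% did. The nearest peak over YNL035C ended 5.14, 5.23 and 2.88 kb from HHT2 in mec1 HU Exp A, Exp B and Control. It ended 3.82 kb away in recovery Exp A, 5074 bp in recovery Exp B, and 2.88 kb over mock and over G1. Each mec1 Control list had a separate peak over YNL035C as well, 567676 to 569453, which ended 6187 bp from HHT2.

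No WT list had a peak within 10 kb of HHT2 or HHF2. The nearest was 13.6 kb from HHT2 in WT HU Exp C and 84.8 kb in WT recovery, and the 3 WT Control lists had no peak on chromosome XIV. Each WT list has fewer peaks than every mec1 list called in the same way, and 3 of the 7 mec1 lists share 1 HU library. The difference between strains near this pair was therefore not tested. The share of all genes with a peak within 10 kb in every mec1 list and in no WT list was not counted. How common this pattern is among genes thus stays unknown.

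HTZ1 and HHO1, the genes outside the divergent pairs, were reached in none of the 12 lists from HU or recovery. The nearest peaks to HTZ1 were 3.79 kb away in mec1 recovery Exp B and 4.21 kb away in mec1 HU Exp A, over RCL1 and MDM12 in both. The other 10 lists had no peak within 10 kb of HTZ1, and the nearest in the WT Control lists were 135 to 141 kb away. Near HHO1, 6 of the 7 mec1 lists had a peak over SPC29, a spindle pole body gene, and RNY1, 6.23 to 7.11 kb from HHO1. Between 24.5 and 59.0% of all genes had a peak within 10 kb in the mec1 lists, so such a distance is common there. The peak was absent from mec1 HU Exp A, whose nearest peak lay 72.1 kb away. In WT HU Exp C the nearest peak to HHO1 was 15.7 kb away.

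**Figure D3:**
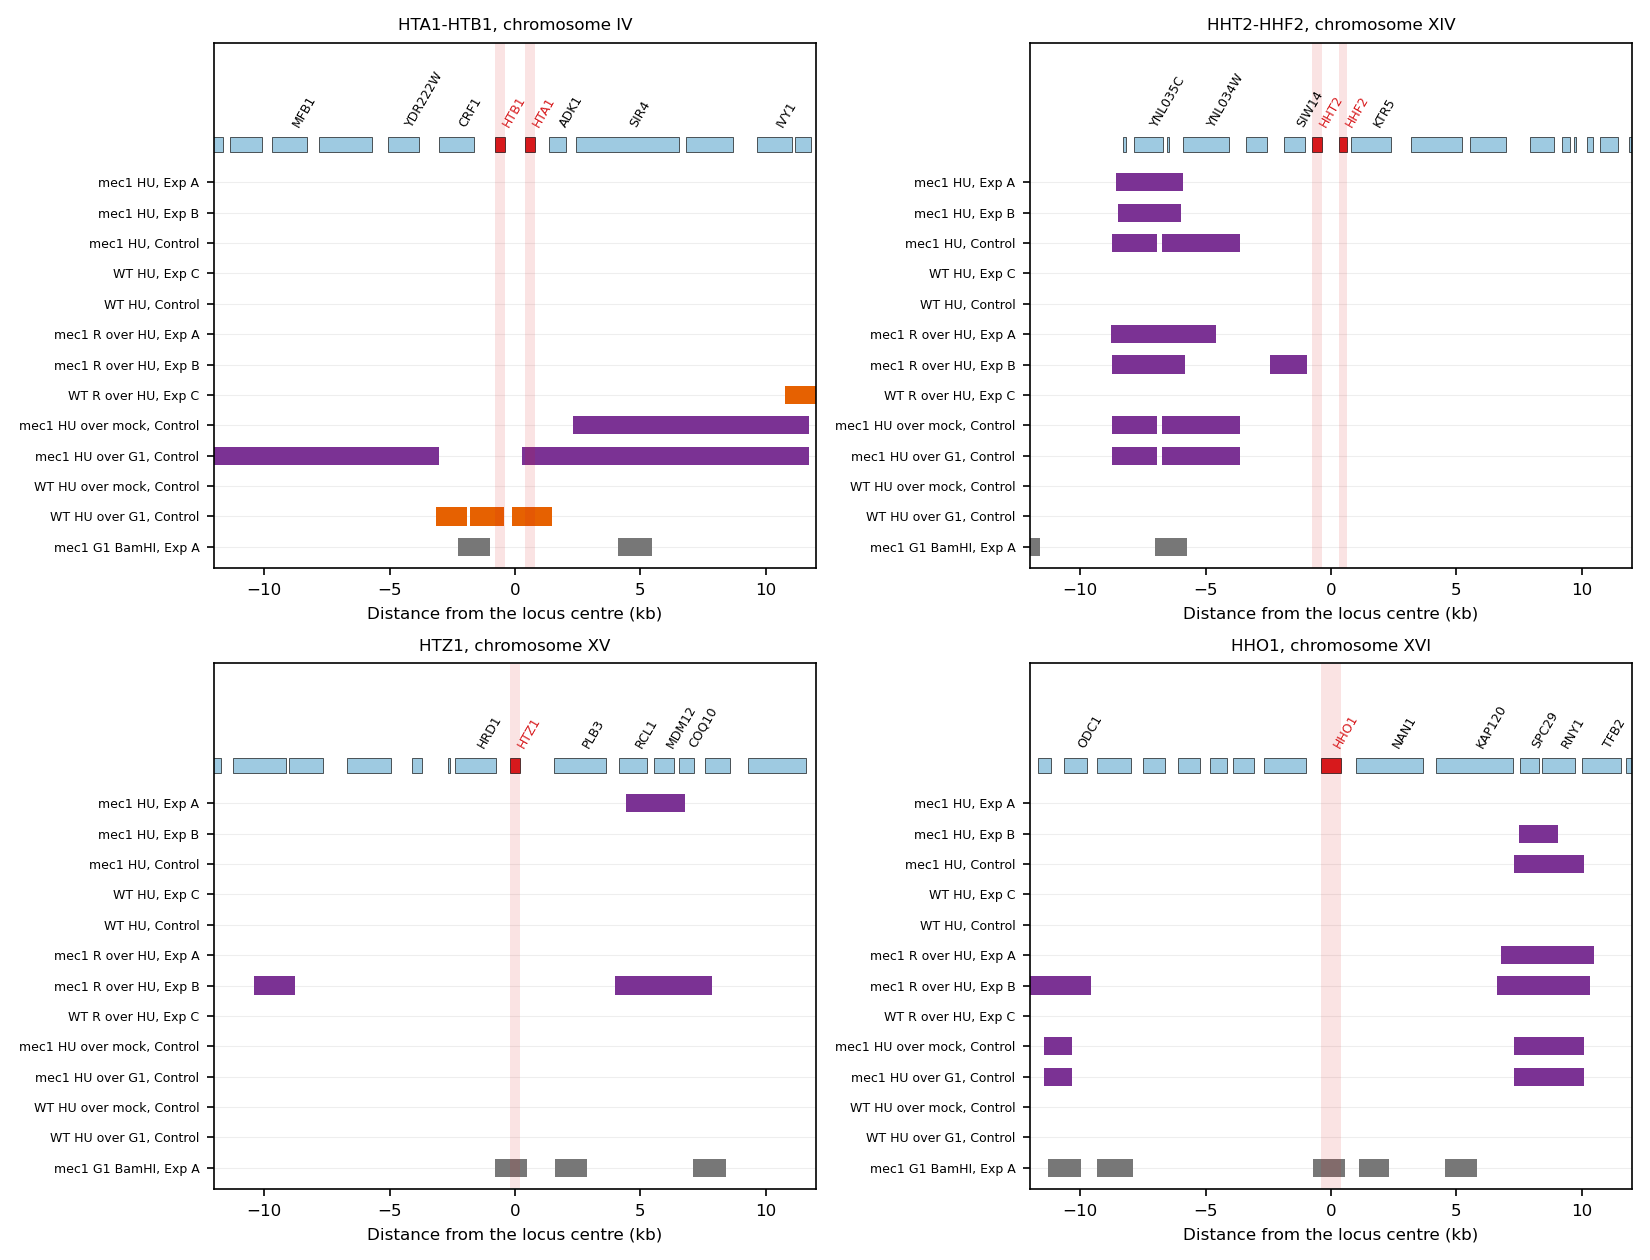
Peaks (bars) in the 13 lists around the HTA1-HTB1 and HHT2-HHF2 pairs, HTZ1 and HHO1, as distance in kb from the centre of each locus, with genes as boxes at the top (histone genes in red) and mec1, WT and BamHI lists in purple, orange and grey. HTA1 and HTB1 are covered only over G1. The mec1 lists, the BamHI digest among them, have peaks to the left of HHT2-HHF2. The mec1 lists from HU or recovery other than Exp A HU have a peak to the right of HHO1. HTZ1 and HHO1 are covered only in the BamHI digest.

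The digest gave these loci a different order. BamHI peaks covered all of HTZ1 (chromosome XV 302981 to 304257, score 3123.68, rank 18 of 1296) and all of HHO1 (chromosome XVI 308513 to 309794, 2821.77, rank 790), and 1 lay 197 bp from HTB1 (chromosome IV 912832 to 914120). HTA2 and HTB2, the members most often called in HU, had none within 8.18 and 9.28 kb. These peaks come from G1 cells that had not entered HU. HTZ1 and HHO1 were thus called in the digest and not in HU or recovery. Of all genes, 35.7% were reached in the digest and 40.4% in at least 1 of the 12 other lists. A gene called in the digest alone is therefore not unusual. No sequence was used, so whether a BamHI site lies at either gene was not tested.

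**Figure D4:**
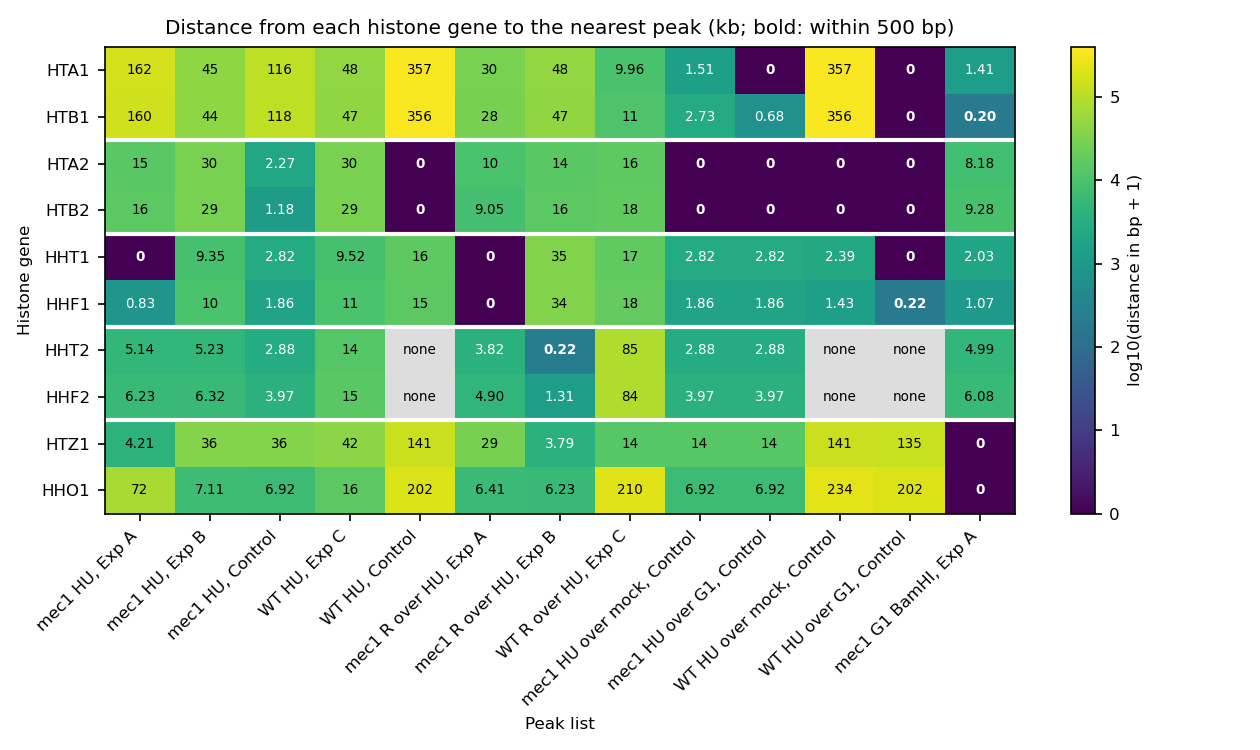
Distance from each histone gene to the nearest peak in each list, printed in kb and coloured on a log10 scale of bp; bold values lie within 500 bp, and grey cells marked none have no peak on that chromosome. HTA2 and HTB2 are at 0 in 5 Control lists, and HTZ1 and HHO1 only in the BamHI digest.

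The rule of 500 bp decided few of these calls. Just inside it were HTB1 in the digest (197 bp), HHF1 in WT HU over G1 (216 bp) and HHT2 in mec1 recovery Exp B (223 bp). Just outside were HTB1 in mec1 HU over G1 (680 bp) and HHF1 in mec1 HU Exp A (833 bp). In the WT HU over G1 list, 5 genes were overlapped in their bodies without any margin, against 2.80% of all genes, and 4 were covered over at least 50% of their length, against 1.77%. The share for 50% cover makes no allowance for gene length. Those 4 genes are 396 to 411 bp long, while the median peak of the list is 1624 bp wide. With each peak reduced to 200 bp around its midpoint, HTA1, HTB1 and HHT1 still lay within 500 bp (3 of 10, against 1.91%), while HTA2 and HTB2 did not.

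The strains could be compared over lists only for HU called alone, with 3 mec1 lists against 2 from WT. The distance to the nearest peak was taken for the 5549 genes with a peak on their chromosome in all 5 lists, which leaves out HHT2 and HHF2. An exact permutation test (two-sided) on log10 distance cannot give a p below 0.1 in this design, and 0 genes passed after Benjamini-Hochberg adjustment or with an unadjusted p under 0.05. Among the 8 members tested, 6 were nearer to a peak in mec1 and 2, HTA2 and HTB2, were nearer in WT. In the genome as a whole 77.3% of genes were nearer in mec1, whose lists are longer.

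For HTA2 the mean log10 distance was 4.0 in mec1 and 2.24 in WT, a difference of 1.76 (exact permutation p = 0.5, adjusted 0.7878). For HHT1 it was 2.47 and 4.09, a difference of -1.62 (exact permutation p = 0.5, adjusted 0.7878). HHF1 gave the smallest p of the members (-0.70, exact permutation p = 0.2, adjusted 0.4997). None of the members passed the test, which could not have called any. Without the WT Control list the HTA2 difference was -0.48, and without scores under 100 it was -0.72, so its direction rests on that list. Without mec1 HU Exp A, in which HHT1 was overlapped, the HHT1 difference was -0.38, and with distances to peak midpoints it was -0.52.

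Genes that act on histones were looked at beside the histone genes themselves. The 33 genes comprised regulators of histone gene transcription, chaperones, acetylases, exchange factors, degradation factors and the centromeric H3 gene CSE4. Of these 33, 13 were reached in at least 1 of the 12 lists and 20 in none, beside 40.4% of all genes reached in at least 1. ASF1, HAT1 and RAD53 were each reached in at least 5 lists, as 7.71% of all genes were. ASF1, a chaperone of H3 and H4 that also takes part in histone gene repression, was reached in 7 lists, among them all 3 mec1 HU lists and WT HU Exp C. Its peak ranked 6 of 151 in mec1 HU Exp B and 8 of 103 in WT HU Exp C, but 54 of 138 in mec1 HU Exp A and 73 of 265 in Control.

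HAT1, a histone acetyltransferase gene, was reached in 5 lists, 2 of mec1 HU alone (Exp B and Control) and WT HU Exp C among them. RAD53, the checkpoint kinase gene that also acts in degradation of excess histones, was reached in 5, including both mec1 recovery lists (rank 77 of 198 and 100 of 209). Its other calls ranked 121 of 151 in mec1 HU Exp B, 467 of 472 in mec1 HU over mock and 538 of 547 in mec1 HU over G1. Those peaks covered 12.2 to 13.7% of the gene. POB3 (a subunit of the FACT chaperone), HIF1, SWI6 (a cofactor of G1/S transcription) and PSH1, a ubiquitin ligase for the centromeric H3 variant, were reached in 4 each. The share of all genes reached in at least 4 lists was not counted. All calls of SWI6 were in Control lists, and each of these genes was called in mec1 both over mock and over G1, which share a HU library. In mec1 HU Control called alone, the POB3 peak ranked 262 of 265. CHZ1, a chaperone of H2A.Z, was reached in mec1 Exp A in HU (rank 104 of 138) and recovery (rank 169 of 198). SCM3, the chaperone of the centromeric H3 variant, was reached in mec1 HU Exp B (rank 135 of 151) and in mec1 recovery Exp A, there by 1 of several peaks tied at the highest score of the list (3100). SWI6 was the only gene of the 33 reached in WT HU over mock and over G1 (rank 7 of 60 and 8 of 90).

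As a list these genes were reached at shares on either side of those of all genes. The shares were 6.06, 15.2 and 12.1% in mec1 HU Exp A, Exp B and Control, where 6.45, 7.35 and 12.9% of all genes were reached. They were 9.09 and 0% in WT HU Exp C and Control, where 6.73 and 1.87% of all genes were. In mec1 recovery they were 15.2 and 6.06%, beside 11.9 and 12.6% of all genes, and in WT recovery 3.03%, beside 5.4% (HIR1, a subunit of a complex that represses histone genes). Over mock and over G1 they were 30.3% in both mec1 lists, beside 24.1 and 26.2%, and 3.03% in both WT lists, beside 2.63 and 3.56%. The WT HU over G1 list, which reached 6 of 10 histone genes, reached 1 of these 33.

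The genes far from any histone gene whose calls most resembled those of a pair were sought over the same 12 lists, by the share of lists in common among those that reached either (Jaccard index). For HTA2-HTB2, 20 genes more than 20 kb from any member had exactly the same 5 lists. Those nearest in score rank were PMC1, a vacuolar calcium pump gene, YGL006W-A, FYV8, SNG1 and YPP1. For HHT1-HHF1 only HIT1 had the same 3 lists. For HTA1-HTB1 the highest index was 0.67, reached by 16 genes, of which ZDS1, YMR272W-B, CDC21 (thymidylate synthase), UFE1 and RCE1 were nearest in rank. With 1 list, the pattern of HHT2-HHF2 was shared by 166 genes. Neighbouring genes under the same peak are counted singly here, so these are counts of genes and not of separate loci. Many lists share a library, so these likenesses describe the lists and carry no test.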

How the data were processed

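Each of 13 samples gave 1 list of peaks. Per the labels, the authors called peaks with MACS from 1 library or over a second one. The submitters' processing notes name the sacCer3 build, BWA 0.6.2, Bowtie2 and MACS 1.4.1 for the Exp A, B and C samples and only BWA for the Control samples. No source used here gives the filters. The deposited files hold positions and a score per peak, the authors' own value. No counts are given, so depth is unknown and no interval for it was computed.

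Starts were shifted by 1 to be 1-based, and 2-digit chromosome names in 1 list were translated. Genes came from the RefSeq R64 table, and strand from the locus tag. Distances run from the gene body to the nearest peak, and rank 1 is the highest score of a list. Genome shares use the furthest gene or peak end of each chromosome (12.059 Mb in all). Groups came from titles and descriptions, and distances were compared with an exact permutation test across all genes with Benjamini-Hochberg adjustment. The counting and the test were checked on simulated data. Python 3.11.15, numpy 2.4.6 and pandas 2.3.3 were used.

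The members and gene lists were chosen with earlier results of these data known. All 10 members were named. Genes of the list of 33 were named when reached in all lists of a group of 2 or more lists, in at least 4 of 12 lists, or in a list that reached 5 or fewer. No sequence was used here, so the planned promoter motif search was not made. Alternatives were other margins, peak midpoints, a 50% cover, a score minimum of 100 and leaving out each list in turn.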

Additional observations from a re-analysis of the deposited data

How the results depend on the processing

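Counts are of the 10 histone genes, as means over the lists of a group. With 1000 bp either side, mec1 HU gave 0.667 in place of 0.333. With peaks reduced to 200 bp around their midpoints, HU gave 0 in both strains, mec1 recovery 0.5, HU over mock 0 in both strains, mec1 HU over G1 1 and WT HU over G1 3. With at least 50% of the gene body covered, WT HU gave 0.5 and WT HU over mock 1. With scores of at least 100, HU called alone gave 0 in both strains. Leaving out each list in turn gave 0 to 0.5 in mec1 HU (0 without Exp A), 0 to 2 in WT HU (0 without Control, 2 without Exp C) and 1 to 2 in mec1 recovery. The other 37 values of these counts stayed within 1.5 times. The strain difference in log10 distance changed sign for HTA2 and HTB2 with scores of at least 100 (-0.72 and -0.81) and without the WT Control list (-0.48 and -0.56). For HTA1 and HTB1 it did so without mec1 Exp B (0.02 and 0.03) and without the WT Control list (0.29 and 0.30). Leaving out each list in turn, the range was -0.48 to 4.0 for HTA2, -0.56 to 3.91 for HTB2, -0.58 to 0.29 for HTA1, -0.58 to 0.30 for HTB1 and -2.37 to -0.38 for HHT1 (-0.38 without mec1 Exp A). For HHT1 midpoints gave -0.52 and scores of at least 100 gave -0.43. The cause was not tested. No alternative can give an exact permutation p below 0.1, so none could pass. No paired analysis was possible because the recovery lists are called over HU of the same experiment and no result between those groups comes from a test. Few lists, most of them without a partner called in the same way, and the unknown depth limit these results.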
